A study of Homo sapiens with 6 samples.

Results

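The 10 genes described here, FOS, FOSB, FOSL1, FOSL2, JUN, JUNB, EGR1, EGR3, IER2 and IER3, were grouped under the name immediate early AP-1 and EGR genes. They were taken by name, from probe sets annotated to exactly 1 gene symbol, and all 10 were measured among 18417 genes on the array. They have 12 probe sets. Of these, 3 belong to IER3, and the brightest of the 3 was used. Both cell lines studied, A673 and SK-N-MC, are established human lines of Ewing tumor, a cancer of bone and soft tissue driven by a fusion of EWSR1 with an ETS family gene. In each line, cells carried either a non-silencing control siRNA (1 array) or 1 of 2 siRNAs against STEAP1, numbered 2 and 3 in the labels (1 array each), which makes 6 arrays. STEAP1 encodes a transmembrane protein of the metalloreductase family. Cells of all groups grew in medium with fetal calf serum and received siRNA at 5 nM for 48 h.

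Immediate early genes are transcribed within minutes of a stimulus such as serum or a growth factor, before any new protein is made, and their transcripts are short-lived. FOS and JUN proteins pair through leucine zippers to form the transcription factor AP-1. JUN proteins can pair with each other, whereas FOS proteins need a JUN partner. EGR proteins bind GC-rich DNA through zinc fingers. The ERK kinase pathway drives many of these genes through the factors ELK and SRF, which bind the serum response element, and cyclic AMP and stress signals act through CREB and ATF proteins at the cyclic AMP response element.

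RefSeq promoter windows of assembly GRCh38.p14, from 250 bases before to 50 bases after the start of each gene, were at hand for 7 of the 10 members. FOSL1, EGR3 and IER3 had none. The 4 windows of genes whose levels differed between the lines, and that of FOS, are shown 5′ to 3′ on the strand of the gene. Capitals mark matches on either strand to any of the motifs searched.
EGR1 (chr5:138465229-138465528, + strand): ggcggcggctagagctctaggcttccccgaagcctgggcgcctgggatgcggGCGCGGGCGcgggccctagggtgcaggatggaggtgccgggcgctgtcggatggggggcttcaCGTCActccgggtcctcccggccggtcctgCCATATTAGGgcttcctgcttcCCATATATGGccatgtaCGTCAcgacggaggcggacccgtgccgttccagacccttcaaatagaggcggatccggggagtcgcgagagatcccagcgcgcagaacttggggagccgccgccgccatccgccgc
IER2 (chr19:13150161-13150460, + strand): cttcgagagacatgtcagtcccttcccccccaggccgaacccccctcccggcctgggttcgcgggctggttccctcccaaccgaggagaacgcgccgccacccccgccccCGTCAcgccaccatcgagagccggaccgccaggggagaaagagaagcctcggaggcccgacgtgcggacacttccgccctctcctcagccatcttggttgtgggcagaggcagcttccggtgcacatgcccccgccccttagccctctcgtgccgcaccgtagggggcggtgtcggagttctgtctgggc
JUN (chr1:58783998-58784297, - strand): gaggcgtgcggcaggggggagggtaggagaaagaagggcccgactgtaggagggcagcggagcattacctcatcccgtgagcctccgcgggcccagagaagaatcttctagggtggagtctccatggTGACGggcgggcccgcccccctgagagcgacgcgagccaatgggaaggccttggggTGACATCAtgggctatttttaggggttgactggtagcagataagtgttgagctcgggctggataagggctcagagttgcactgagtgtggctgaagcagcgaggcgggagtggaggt
JUNB (chr19:12791236-12791535, + strand): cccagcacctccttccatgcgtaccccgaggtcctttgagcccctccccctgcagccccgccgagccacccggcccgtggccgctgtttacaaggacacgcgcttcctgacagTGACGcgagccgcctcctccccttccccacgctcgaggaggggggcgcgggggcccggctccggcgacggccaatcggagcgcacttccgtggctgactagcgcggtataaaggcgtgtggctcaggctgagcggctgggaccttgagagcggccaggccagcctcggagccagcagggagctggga
FOS (chr14:75278578-75278877, + strand): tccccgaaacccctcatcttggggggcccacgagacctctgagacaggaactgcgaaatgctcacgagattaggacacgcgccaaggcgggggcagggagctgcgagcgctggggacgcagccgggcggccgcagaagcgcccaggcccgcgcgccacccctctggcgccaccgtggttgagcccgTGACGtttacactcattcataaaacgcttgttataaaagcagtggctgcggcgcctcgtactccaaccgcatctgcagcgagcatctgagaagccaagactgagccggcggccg

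The core of the cyclic AMP response element, TGACG, was present in 7 of 7 member windows and in 24.6% of all 35116 windows. In FOS its first base lay 64 bases before the start of the gene and in FOSB 60 bases before it. FOSL2 and EGR1 each held a match that began 66 bases before the start and a second one further upstream. The JUN-ATF variant site TGACATCA was in JUN alone of the 7, beginning 67 bases before the start, and in 2.61% of all windows.

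The serum response element was found at 2 places in EGR1, beginning 105 and 83 bases before the start, and in 1.29% of all windows. No match lay in the other 6 member windows, which do not reach further than 250 bases upstream. An EGR site, GCGNGGGCG, was found in EGR1 alone of the 7 and in 9.43% of all windows. The AP-1 site TGACTCA was found in FOSL2 alone, 5 bases after the start, and in 4.95% of all windows. The full element TGACGTCA, which contains the core, was in none of the 7 and in 1.85% of all windows. GGAAGGAA, a pair of the GGAA units that ETS proteins bind, was also in none of them and in 3.67% of all windows. These matches describe the printed letters and were not tested for function.

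**Figure D1:**
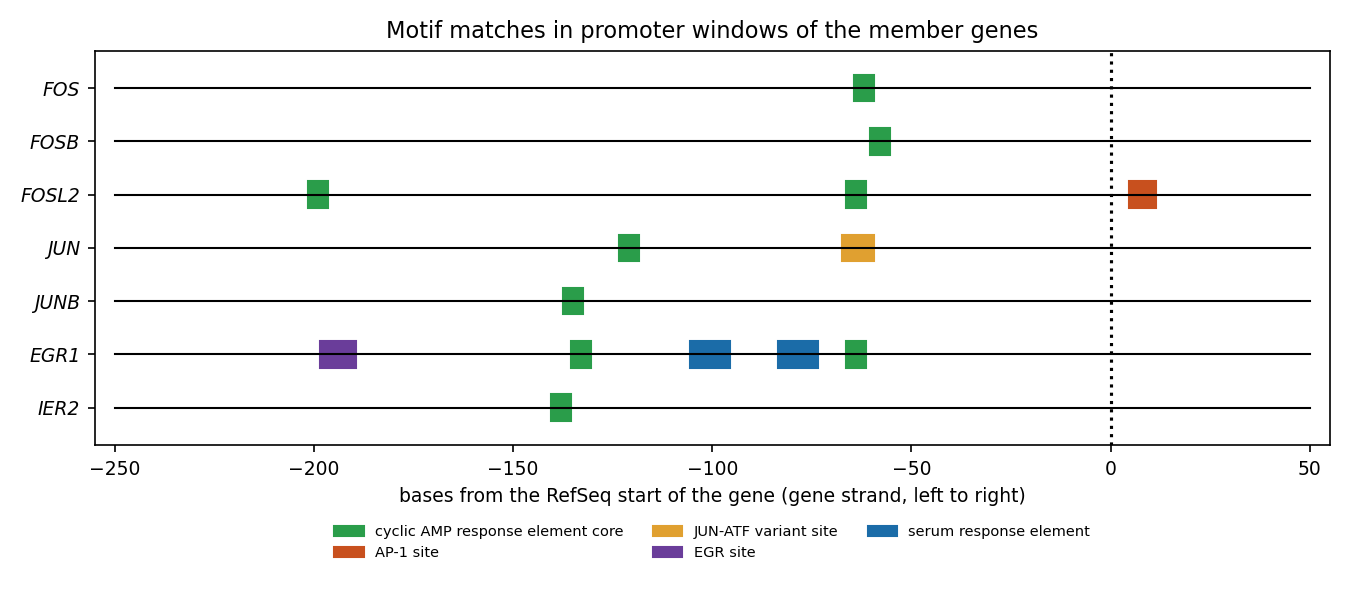
Motif matches in the promoter windows of the 7 members that had one. The x axis is the distance in bases from the RefSeq start of the gene (dotted line), each row is a gene and each coloured block is a match. The core of the cyclic AMP response element is present in every row, and EGR1 holds both matches to the serum response element.

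Levels are log2 of the deposited array intensity. The level of one gene cannot be set against that of another gene, since probes differ in their response. The Pearson correlation over all genes was 0.986 to 0.993 for pairs of arrays within a line and 0.946 to 0.949 for pairs between lines. Of the control level of STEAP1, siRNA 2 left 12.7% and siRNA 3 left 18.7% in SK-N-MC, while in A673 they left 30.8% and 32.1%. Of 9 genes checked as Ewing tumor markers, 8 were measured and NR0B1 was not. The 8 lay above the median gene of the array on all 6 arrays, among them CD99 (9.40 to 10.25) and NKX2-2 (5.57 to 6.15). They also include EWSR1, JAK1, CCND1 and the silenced STEAP1, so this count does not by itself identify the tumor. The markers of blood and endothelial cells lay below that median on every array, as did EPCAM and CDH1 of the epithelial markers, whereas KRT18 (7.53 to 8.57) did not. COL1A1 (4.46 to 4.91) and PDGFRB (4.10 to 4.60) of the fibroblast markers were also above it, whereas LUM (1.24 to 1.52) lay below it on 6 arrays and DCN (1.37 to 4.17) on 4. Separate cultures are not mentioned in the labels, and the p-values therefore cover only the spread among these arrays, which may be technical. With 1 control array in each line, the spread between controls could not be estimated.

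The first comparison asks how the levels of the immediate early genes differed between the 2 Ewing lines. EGR1 and IER2 were higher in A673, and JUN and JUNB were higher in SK-N-MC. These 4 of 10 members passed an adjusted p of 0.05 in limma, where 24.8% of all genes did (13.5% higher in A673 and 11.4% lower). The median log2 difference of the 10 members was 0.11, beside -0.02 over all genes. The members thus showed no common direction, and the share that passed is to be read against a background in which 1 gene in 4 differs.

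EGR1 encodes a zinc-finger transcription factor that growth factors induce. SK-N-MC cells gave a level of 4.07 for control siRNA, 3.48 for siRNA 2 and 3.68 for siRNA 3. A673 cells gave 5.10 for control siRNA, 4.72 for siRNA 2 and 4.52 for siRNA 3. The lowest A673 array was above the highest SK-N-MC array. The mean was 4.78 ± 0.29 (SD, n = 3) in A673 and 3.74 ± 0.30 (SD, n = 3) in SK-N-MC, a 2.05-fold higher level in A673 (log2 difference 1.04, SE 0.11, limma adjusted p = 3.30e-04). The labels do not state whether both lines received the same control siRNA. With control set against control and siRNAs of the same number against each other, the difference was 1.02 for control, 1.24 for siRNA 2 and 0.84 for siRNA 3. EGR3, a related zinc-finger factor, lay at 1.84, 2.11 and 2.06 in SK-N-MC and at 1.98, 1.89 and 2.20 in A673, in the order control, siRNA 2 and siRNA 3. Its arrays overlapped between the lines (log2 difference 0.02, 95% confidence interval -0.26 to 0.30), and all 6 lay below the median gene of the array. No detection calls were used, so EGR3 may not have been measured above background.

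IER2, a small nuclear protein of the immediate early response, differed in the same direction as EGR1. In the order control, siRNA 2 and siRNA 3, its levels were 5.71, 5.67 and 5.78 for SK-N-MC, beside 6.59, 6.36 and 6.42 for A673. The level was 1.67-fold higher in A673 (log2 difference 0.74, SE 0.11, limma adjusted p = 0.0015), with no overlap between the lines. IER3, a short-lived protein that affects cell survival, did not pass the threshold. Its values were 4.63, 4.09 and 4.28 in SK-N-MC, a range that overlaps the 4.23, 4.16 and 4.27 of A673 (log2 difference -0.12, SE 0.13, limma adjusted p = 0.613). The other 2 IER3 probe sets held identical values on all arrays and so count as 1 measurement.

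Both JUN genes went the other way. JUN, the founding AP-1 subunit, had levels of 5.09, 4.93 and 5.38 in SK-N-MC, in the same order, beside 4.38, 4.48 and 4.46 in A673. Every A673 array lay below every SK-N-MC array, and the level was 1.61-fold lower in A673 (log2 difference -0.69, SE 0.13, limma adjusted p = 0.0061). JUNB, which activates transcription less than JUN at many AP-1 sites, lay at 5.04, 4.65 and 4.78 in SK-N-MC and at 3.83, 3.50 and 3.84 in A673. Its groups were also apart, and it was 2.15-fold lower in A673 (log2 difference -1.10, SE 0.13, limma adjusted p = 4.02e-04). The JUNB difference was -1.21 between the control arrays, -1.15 with siRNA 2 and -0.95 with siRNA 3.

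**Figure D2:**
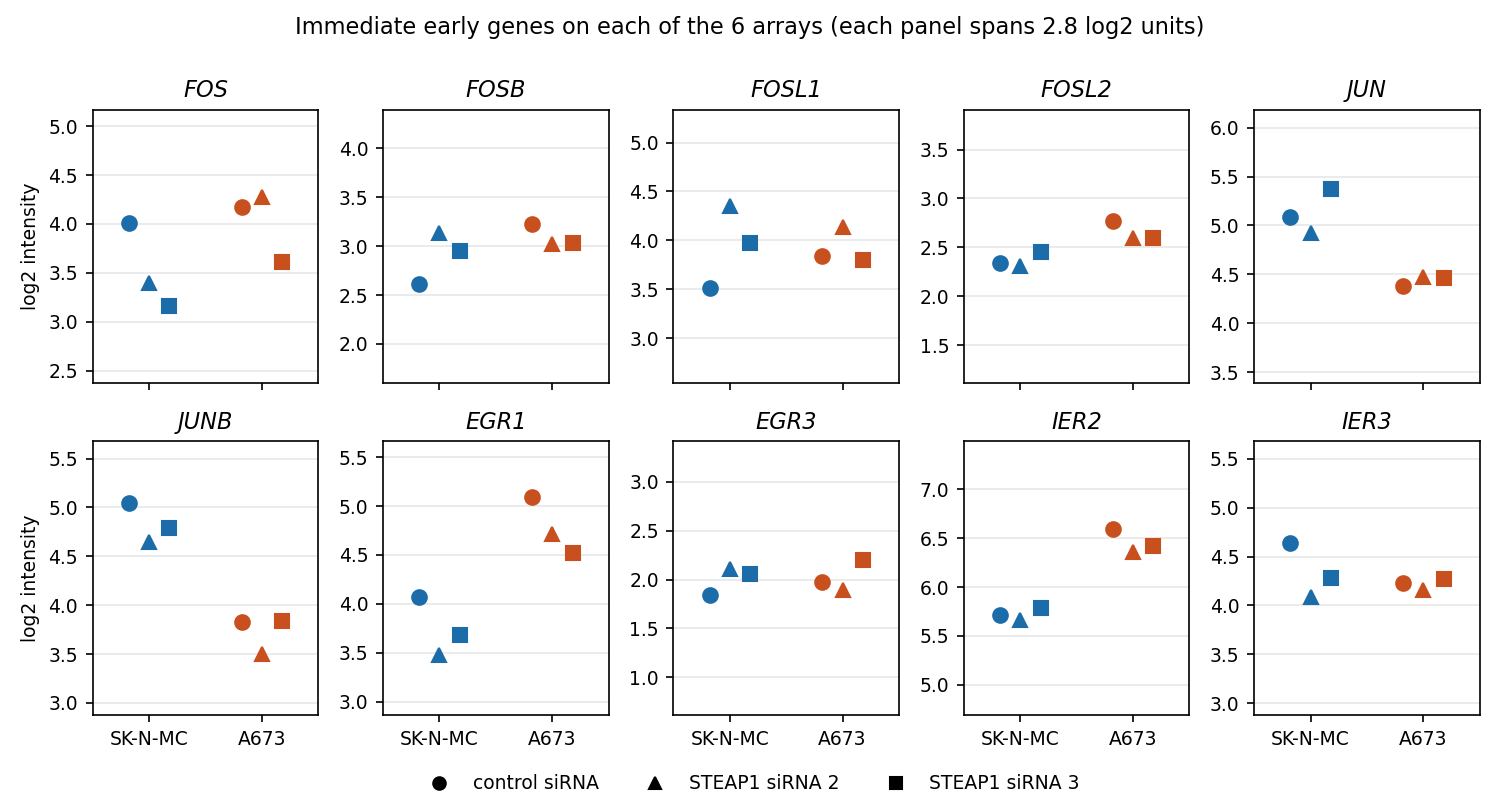
Log2 intensity of each member on each of the 6 arrays, by cell line (x axis, blue for SK-N-MC and orange for A673) and siRNA (circle for control, triangle for siRNA 2, square for siRNA 3). Every panel spans the same number of log2 units. EGR1 and IER2 sit higher in A673 and JUN and JUNB lower, with no overlap between the lines.

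In the fit on cell line and silencing, none of the 4 FOS family genes passed the threshold between the lines. FOS, the partner of JUN in the classical AP-1 dimer, lay at 4.01, 3.39 and 3.16 in SK-N-MC and at 4.17, 4.27 and 3.61 in A673, in the order control, siRNA 2 and siRNA 3. It was higher in A673 in 3 of 3 pairs of arrays (control with control, and siRNAs of the same number), but the ranges overlapped (log2 difference 0.50, SE 0.19, limma adjusted p = 0.103). FOSL2, a FOS relative with roles in bone and in fibroblasts, lay at 2.34, 2.30 and 2.45 in SK-N-MC and at 2.77, 2.59 and 2.60 in A673. Its groups did not overlap, but the difference of 0.29 (SE 0.11) did not pass the threshold (limma adjusted p = 0.0984). By the probe set used for each gene, groups did not overlap in 5 of 10 members and in 37.9% of all genes.

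FOSB is a further FOS relative whose product accumulates in long-term stimulated neurons. It lay at 2.61, 3.14 and 2.95 in SK-N-MC and at 3.22, 3.02 and 3.04 in A673 (log2 difference 0.20, SE 0.15). FOSL1, which encodes FRA1, an AP-1 subunit often high in invasive cells, lay at 3.51, 4.35 and 3.97 in SK-N-MC and at 3.84, 4.14 and 3.80 in A673 (log2 difference -0.02, 95% confidence interval -0.40 to 0.37). The arrays of both genes overlapped between the lines. FOSB and FOSL2 lay below the median gene of the array on all 6 arrays, and FOS on 1.

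**Figure D3:**
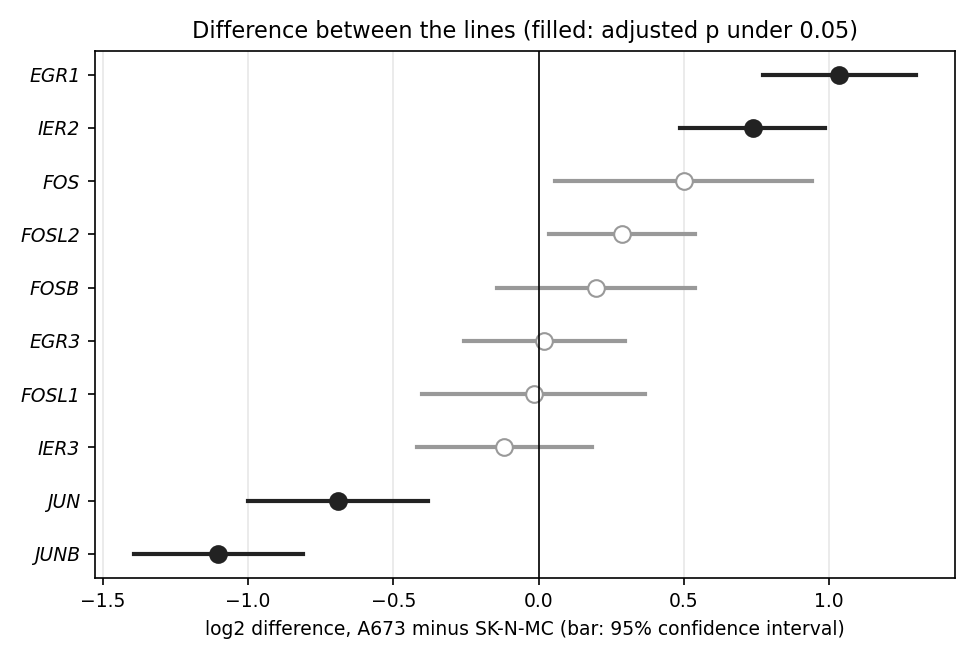
Log2 difference of each member, A673 minus SK-N-MC, with its 95% confidence interval from limma. Filled points passed an adjusted p of 0.05: EGR1 (1.04) and IER2 (0.74) to the right of 0, and JUN (-0.69) and JUNB (-1.10) to the left.

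The second comparison asks how the members responded to STEAP1 siRNA over both lines together. By the probe set used for each gene, EGR1 was the only member lower in 4 of 4 siRNA arrays, and no member was higher in 4 of 4. The other IER3 probe sets were also lower in 4 of 4 (-0.36 and -0.33 in SK-N-MC, -0.09 and -0.03 in A673). No member passed the threshold in limma, nor did any other gene (0 of 18417 genes, 0% called). STEAP1 itself missed it (log2 difference -2.18, SE 0.24, limma adjusted p = 0.294), as it did within SK-N-MC (-2.70, adjusted p = 0.0681) and within A673 (-1.67, adjusted p = 1.00), so a count of 0 in this design does not show that no gene changed. At an unadjusted p under 0.05 there were 2 of 10 members, EGR1 and FOS, and 4.63% of all genes (852 genes). The median of the 10 members was -0.08, beside -0.01 over all genes, with 6 members below and 4 above 0.

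For EGR1 the difference from control was -0.60 (siRNA 2) and -0.39 (siRNA 3) in SK-N-MC, beside -0.38 (siRNA 2) and -0.57 (siRNA 3) in A673. All 4 siRNA arrays thus lay below the control array of their line, by similar amounts in both lines. The mean level with siRNA was 71.4% of control (log2 difference -0.49, SE 0.12, limma unadjusted p = 0.0038, adjusted p = 0.989). Among all genes, 11.2% were lower in 4 of 4 siRNA arrays, and 10.6% were higher in 4 of 4, so 1 of 10 members is near the background. The difference ranged from -0.53 to -0.44 with any 1 array left out, and stood at -0.27 when 16 intensity units were added before taking log2.

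FOS was lower in 3 of 4 siRNA arrays. Its differences were -0.61 (siRNA 2) and -0.85 (siRNA 3) in SK-N-MC, beside 0.10 (siRNA 2) and -0.57 (siRNA 3) in A673 (log2 difference -0.48, SE 0.20, limma unadjusted p = 0.0450, adjusted p = 0.989). FOSL1 was higher in 3 of 4, with SK-N-MC values of 0.84 and 0.46 and A673 values of 0.30 and -0.04 (log2 difference 0.39, SE 0.18, limma unadjusted p = 0.0589, adjusted p = 0.989). In SK-N-MC alone the difference was -0.73 for FOS and 0.65 for FOSL1, and in A673 alone it was -0.24 and 0.13. A fit without 1 control array returns only the response of the other line, so it cannot test how much a control array weighed. The A673 siRNA 2 array was the exception for FOS and the A673 siRNA 3 array for FOSL1. JUNB was lower in 3 of 4 arrays, from -0.39 to 0.01, with a difference of -0.24 (SE 0.13), and IER3 in 3 of 4, from -0.54 to 0.05, with a difference of -0.23 (SE 0.14). With 1 array left out, JUNB ran from -0.33 to -0.16 (A673 alone) and IER3 from -0.45 (SK-N-MC alone) to -0.0123 (A673 alone).

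The other 5 members differed across the lines by 0.16 or less in size in the same fit. EGR3 stood at 0.15 (SE 0.13), FOSB at 0.12 (SE 0.16), JUN at 0.08 (SE 0.14), FOSL2 at -0.07 (SE 0.12) and IER2 at -0.10 (SE 0.12). For JUN the 95% confidence interval ran from -0.25 to 0.40 and for IER2 from -0.36 to 0.17. Changes of up to those sizes are compatible with these 6 arrays.

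**Figure D4:**
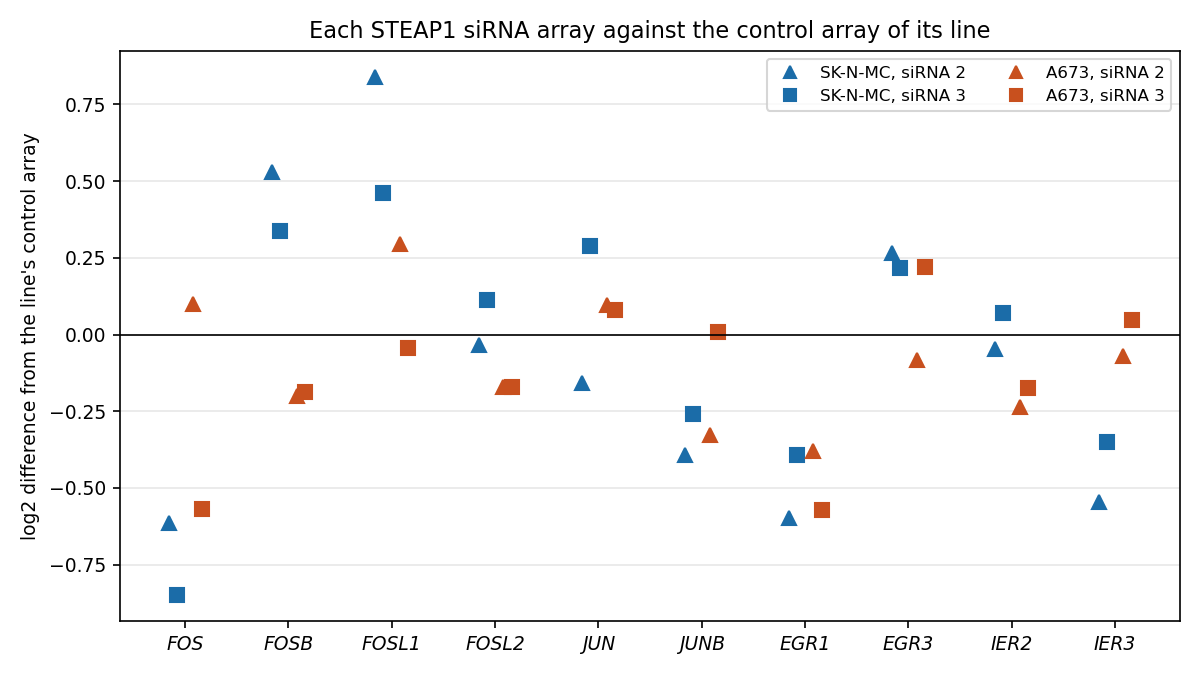
Log2 difference of each STEAP1 siRNA array from the control array of its line, for each member (blue for SK-N-MC, orange for A673, triangle for siRNA 2, square for siRNA 3). The 4 points of EGR1 lie between -0.60 and -0.38, and those of FOSB lie above 0 in SK-N-MC and below 0 in A673.

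**Figure D5:**
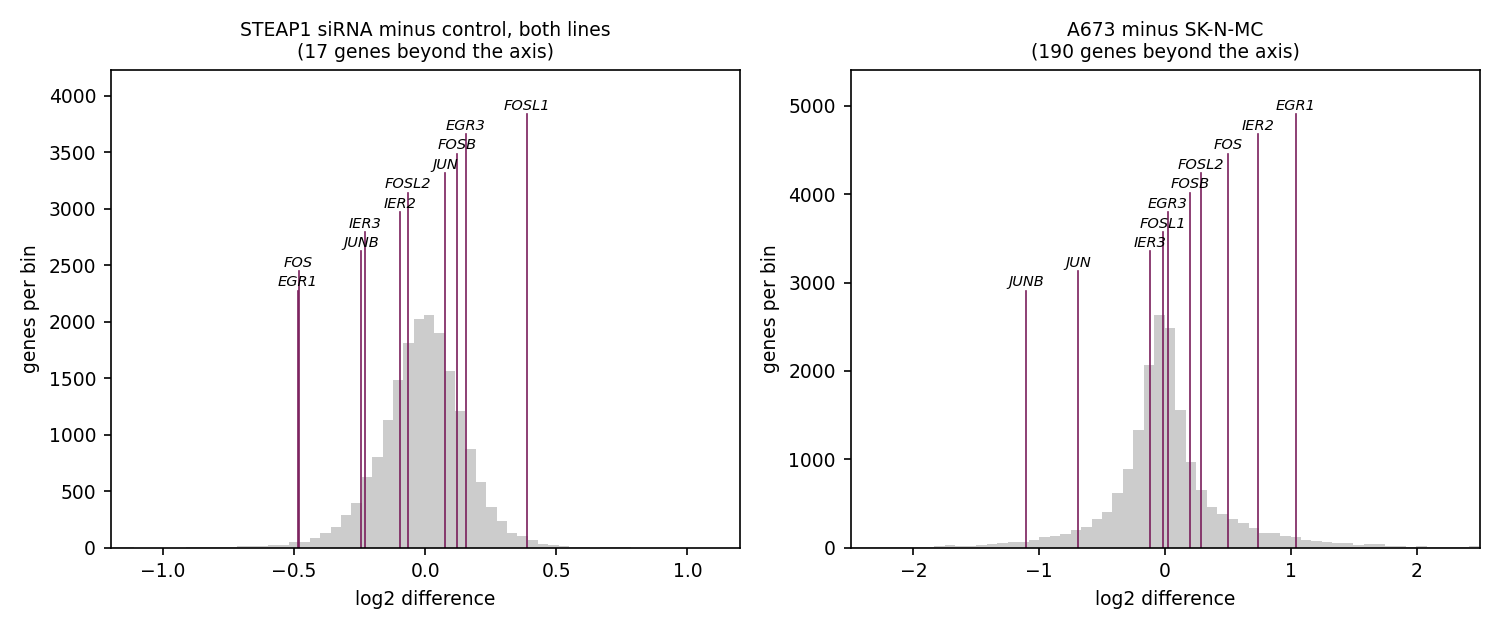
Distribution of log2 differences over all 18417 genes (grey bars, genes per bin) for silencing across both lines (left) and for A673 minus SK-N-MC (right), with the value of each member as a vertical line. The height of a line carries no value. EGR1 and FOS are the lowest members at left, and JUNB and EGR1 are the members farthest from 0 at right.

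The third comparison asks about the response within each line. The siRNA arrays of a line share 1 control array, so a control array that stands apart would shift both of them. In SK-N-MC, limma called 1 gene (0.00543% of genes), XAF1, an interferon-inducible gene that is no member and was lower by 2.59 (log2, SE 0.18, adjusted p = 0.0466), and 0 members. When siRNA 3 of SK-N-MC was left out the count was 61 genes, again with 0 members. At an unadjusted p under 0.05 there were 5 of 10 members, where 5.12% of all genes reached it. FOS differed by -0.73 (SE 0.28), EGR1 by -0.50 (SE 0.18) and IER3 by -0.45 (SE 0.18). FOSL1 differed by 0.65 (SE 0.23) and FOSB by 0.43 (SE 0.17). Their limma adjusted p-values lay between 0.928 and 0.949.

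At least 1.2-fold lower in both siRNA arrays of SK-N-MC, a limit chosen after the values were seen, were 3 of 10 members (FOS, EGR1 and IER3), beside 6.10% of all genes. At least 1.2-fold higher in both were 2 of 10 (FOSB and FOSL1), beside 4.69% of all genes. Within the FOS family, values thus lay on both sides of the control array, FOS below it and FOSB and FOSL1 above it. Since all 5 rest on the same control array, these counts are not independent of each other. The other IER3 probe sets differed by -0.36 and -0.33 in SK-N-MC, beside -0.54 and -0.35 for the one used.

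In A673, limma called 0 of 18417 genes (0%), and 617 had an unadjusted p under 0.05 (3.35%). EGR1 was the only member among these, at -0.48 (SE 0.18, unadjusted p = 0.0369, adjusted p = 1.00 in limma). It was also the only member at least 1.2-fold lower in both A673 siRNA arrays, beside 5.04% of all genes, and no member was at least 1.2-fold higher in both (4.03% of all genes). FOS stood at -0.24 (SE 0.28), with arrays on either side of 0, and FOSL1 at 0.13 (SE 0.23).

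A direct test then set the response of A673 against the SK-N-MC response, as the first minus the second. No gene was called (0%; 26 genes, 0 of them members, without siRNA 3 of SK-N-MC), and 1 member, FOSB, was among the 3.86% of genes (711) with an unadjusted p under 0.05. FOSB stood at 0.53 and 0.34 relative to control in SK-N-MC, but at -0.20 and -0.19 in A673, so its response differed by -0.63 (SE 0.24, limma unadjusted p = 0.0369, adjusted p = 1.00). The level of FOSB, A673 minus SK-N-MC, differed by 0.61 between the control arrays, but by -0.11 with siRNA 2 and 0.09 with siRNA 3. For EGR1 the responses differed by 0.02 (95% confidence interval -0.60 to 0.64), an interval that also holds differences as large as the response itself. FOSL1 stood at -0.52 (SE 0.33), FOS at 0.50 (SE 0.40) and IER3 at 0.44 (SE 0.25), and no difference of responses in any member passed the threshold.

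A further comparison set siRNA 2 against siRNA 3 over both lines. No gene was called (0%), and 6.67% of genes (1229) had an unadjusted p under 0.05. FOS was the only member among them. It was higher with siRNA 2 than with siRNA 3 in both lines, at 3.39 against 3.16 in SK-N-MC and 4.27 against 3.61 in A673 (log2 difference 0.45, SE 0.18, limma unadjusted p = 0.0397, adjusted p = 0.728). FOSL1 was also higher with siRNA 2 in both lines (0.36, SE 0.17), and JUNB was lower with it in both (-0.24, SE 0.14). EGR1 stood at -0.01 (SE 0.15), being lower with siRNA 2 in SK-N-MC and with siRNA 3 in A673.

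The rest of the pathway was counted over 6 lists of textbook genes, and some genes stand in 2 lists. Between the lines, 10 of 26 other immediate early genes passed the threshold (24.8% of all genes did), 9 higher and 1 lower in A673. SGK1, a serum-induced kinase, was higher by 1.68 (log2, SE 0.12), HBEGF, a growth factor that activates the EGF receptor, by 1.56 (SE 0.14), and CCN1, a matrix protein, by 1.53 (SE 0.30). MYC, the growth regulator, was the 1 lower gene, at -0.90 (SE 0.11), and was named after its value was seen. Their limma adjusted p-values were at most 0.0062. SGK1 and HBEGF lay below the median gene of the array on all 3 SK-N-MC arrays. CCN1 lay close to it there, at 3.08, 3.04 and 3.35 beside medians of 3.24, 3.24 and 3.22. All of these genes may be too dim in SK-N-MC for a reliable fold. With 16 units added, the difference was 0.61 for SGK1, 0.73 for HBEGF and 0.77 for CCN1. The count of 10 was 5 with the limit of mean log2 4, which tests fewer genes, 6 with 16 units added, and 7 to 11 with 1 array left out. The list median was 0.09. The list held genes on both sides of 0, with 15 positive and 11 negative.

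Of 11 other AP-1 family and partner genes, 0 passed between the lines, where 24.8% of all genes did. The smallest p was that of ATF2, a partner of JUN at the variant site printed above, at -0.43 (SE 0.14, limma adjusted p = 0.0561). ATF2 passed in 4 of 8 alternatives, for example with quantile normalization (-0.53, limma adjusted p = 0.0393), and when siRNA 3 of SK-N-MC was left out (-0.56, limma adjusted p = 0.0228), but not without any other single array, for example siRNA 2 of SK-N-MC (-0.30, limma adjusted p = 0.136). Of 10 regulators of immediate early transcription, 1 was higher in A673 and 4 were lower, beside 13.5% and 11.4% of all genes. ELK3, a cofactor of SRF that can repress, was higher by 1.17 (SE 0.20). MED23, the Mediator subunit that ELK1 contacts, stood at -0.85 (SE 0.16), ELK1 at -0.72 (SE 0.15), the coactivator CREBBP at -0.42 (SE 0.13) and SRF at -0.39 (SE 0.10). CREBBP and SRF were named after their values were seen.

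Of 12 measured upstream kinases, 4 were higher in A673 and 3 lower, beside 13.5% and 11.4% of all genes. The ERK-activated kinase RPS6KA2 was higher by 0.89 (SE 0.14), MAPK3, which encodes ERK1, by 0.76 (SE 0.20), MAPK8, which encodes the JUN kinase JNK1, by 0.73 (SE 0.13) and MAP2K1, which encodes the ERK activator MEK1, by 0.62 (SE 0.12). MAPK9 stood at -0.67 (SE 0.12), RPS6KA1 at -0.62 (SE 0.12) and ARAF at -0.39 (SE 0.10). The last 4 were named after their values were seen. Related kinases thus stood on opposite sides, MAPK8 and MAPK9 as well as RPS6KA2 and RPS6KA1. RPS6KA2 lay below the median gene of the array on all 3 SK-N-MC arrays, and its difference was 0.32 with 16 units added.

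Of 16 textbook AP-1 targets, 5 were higher in A673 and 1 was lower, beside 13.5% and 11.4% of all genes. The collagenase gene MMP1 lay between 8.14 and 9.91 in A673 and between 1.98 and 2.69 in SK-N-MC, where it was below the median gene of the array, so the size of its difference of 6.85 (SE 0.28) is uncertain. CCND1, a cyclin of G1 phase, was higher by 1.78 (SE 0.14), the angiogenic factor gene VEGFA by 0.84 (SE 0.13), the hyaluronan receptor gene CD44 by 0.75 (SE 0.11) and PLAU, which encodes urokinase, by 0.60 (SE 0.13). CD44 lay below the median gene of the array on all 6 arrays (1.87 to 2.82), and its difference was 0.18 with 16 units added. PLAU lay below that median on every SK-N-MC array, and its difference was 0.24 with 16 units added. CD44 and PLAU were named after their values were seen. Of 7 textbook EGR1 targets, 1 was higher and 2 were lower, beside the same shares of all genes. The matrix gene FN1 was higher by 2.92 (SE 0.26), and F3, the tissue factor gene, at -0.60 (SE 0.12) and TGFB1, which stands in both lists, at -0.59 (SE 0.16) were lower. Of the 7 targets, 1 (FN1) was above 0 and 6 were below, with a median of -0.12, beside 53.3% of all genes below 0. PDGFA, PDGFB and THBS1 lay below the median gene of the array on all 6 arrays. How these targets relate to EGR1, itself higher in A673, was not tested.

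Some of these calls between the lines needed all 6 arrays. Without the SK-N-MC or the A673 control array, which give the same value, the adjusted p in limma was 0.0543 for CCN1 (1.36), 0.0545 for MAPK3 (0.89), 0.178 for TGFB1 (-0.41), 0.105 for SRF (-0.38), 0.251 for CREBBP (-0.31), 0.0568 for RPS6KA1 (-0.56), 0.133 for ARAF (-0.35) and 0.0764 for PLAU (0.52). SRF also lost its call without any other single array (-0.41 to -0.36), and ARAF without either SK-N-MC siRNA array or the A673 siRNA 3 array (-0.42 to -0.37). TGFB1 (-0.53 and -0.58) and CREBBP (-0.41 and -0.38) lost theirs without SK-N-MC siRNA 3 or A673 siRNA 3, in that order, and MAPK3 without A673 siRNA 2 (0.62). Other settings also ended calls. With 16 units added, the adjusted p in limma was 0.0863 for CCN1 (0.77), 0.0920 for MAPK3 (0.59), 0.0916 for TGFB1 (-0.45) and 0.0751 for CREBBP (-0.34). CREBBP missed the threshold with median centring too (-0.41, limma adjusted p = 0.0585), as did MAPK3 (0.70, limma adjusted p = 0.0644) and SRF (-0.39, limma adjusted p = 0.0556) with 4 group means. EGR1, IER2, JUN and JUNB kept their calls under each of these settings and with any 1 array left out.

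Across both lines, silencing of STEAP1 gave 0 calls in each of the 6 lists, as it did for all genes (0%). ZFP36, which encodes a protein that degrades mRNAs with AU-rich elements, stood above control by 0.40 and 0.41 in SK-N-MC, and by 0.44 and 0.37 in A673 (log2 difference 0.41, SE 0.11, limma adjusted p = 0.989). It lay below the median gene of the array on all 6 arrays, and its difference was 0.12 with 16 units added. Each gene named in this comparison was picked for the smallest p of its list. RPS6KA3, an ERK-activated kinase, was lower in 4 of 4 arrays, from -0.68 to -0.18 (log2 difference -0.47, SE 0.15). TIMP1, an inhibitor of matrix metalloproteinases, was also lower in 4 of 4, from -0.94 to -0.23 (-0.51, SE 0.16). THBS1, a matrix protein gene among the EGR1 targets, stood at -0.43 (SE 0.15), ELK4 at -0.31 (SE 0.13) and CREB1 at -0.26 (SE 0.11), with the same adjusted p. THBS1 lay below the median gene of the array on all 6 arrays, and its difference was -0.08 with 16 units added. In SK-N-MC and A673 alone, the values were -0.72 and -0.13 for THBS1, and -0.73 and -0.30 for TIMP1. In the same order they were -0.44 and -0.17 for ELK4, and -0.36 and -0.16 for CREB1.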

How the data were processed

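Total RNA of 6 samples (200 ng per labelling, cells at 80% confluency) was hybridised to Affymetrix Human Gene ST arrays. The authors deposited linear intensities for each probe set. Per the submitters' processing notes, RMA was run in the software Affymetrix Expression Console 1.1. The genome build, and the step that returned the RMA summaries to a linear scale, are not given in the sources used here. RMA draws low values towards each other, and no detection calls were used.

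Of 33297 probe sets, 19460 carry 1 gene symbol in the platform annotation, 1754 carry several and were not used, and 12083 are unnamed here. Symbols were updated through a RefSeq table of GRCh38.p14, which matched 19429. The probe set with the highest mean log2 was kept for each gene, which left 18417 genes.

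Differences were tested on log2 of the deposited intensity with lmFit and eBayes of limma 3.58.1 under R 4.3.3 (two-sided, Benjamini-Hochberg over all genes, threshold 0.05). Silencing across lines and the line difference came from cell line and silencing terms, responses within lines and their difference from 4 group means, and the siRNA difference from a term for each siRNA. The fits were tested on simulated data. Members, pathway lists and the naming rule were chosen with earlier results of these data known. The rule names all 10 members, the 3 largest calls of each list between the lines (the smallest p where none passed) and the smallest p of each list across lines. Each list counts only its measured genes. Alternatives were median centring, quantile normalization, a mean log2 of at least 4, 16 intensity units added before log2, the mean of all probe sets, a variance trend, a replicate block, 4 group means for the line difference, and leaving out each array.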

Additional observations from a re-analysis of the deposited data

Results flagged for a closer look

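Relative to the 1 control array of each line, FOSB was above control with both siRNAs in SK-N-MC and below it with both in A673. Its level, A673 minus SK-N-MC, differed by 0.61 for control, by -0.11 for siRNA 2 and by 0.09 for siRNA 3. The lines thus differed mainly in their single control arrays. The difference of the responses was -0.63 (SE 0.24), and its direct test did not pass the threshold over all genes (limma unadjusted p = 0.0369, adjusted p = 1.00). FOSB lay below the median gene of the array on all 6 arrays, and the part of low signal in this difference was not tested.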

How the results depend on the processing

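EGR1, IER2, JUN and JUNB passed the threshold between the lines under all 14 alternatives tried, 6 of them with 1 array left out. Of 436 member values recomputed, 412 kept their direction and their side of the threshold. The size of log2 differences was lower with 16 intensity units added (EGR1 0.56, JUNB -0.60), as adding a constant compresses low values. Same-numbered siRNA arrays deviated together little (correlation of deviations 0.0663 over 18417 genes, and 0.193 over the 7413 brighter genes, with mean log2 above the limit of 4). The labels name a shared siRNA, not a shared culture or day, and the numbers were not taken as pairs. With the replicate block, 5 members passed between the lines: FOS (0.50, limma adjusted p = 0.0427) joined the 4, and it missed the threshold wherever else it was tested (adjusted p 0.0739 to 0.275); it was too dim for the limit of mean log2 4. The block also let ATF2 pass (limma adjusted p = 0.0271) and ended the call of CREBBP (adjusted p = 0.0560).

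Small values changed sign. The EGR1 difference of responses was -0.0195 after quantile normalization and -0.0739 with 16 units added, and ran from -0.0818 to 0.12 with single arrays left out. EGR1 between the siRNAs was 0.0149 with 16 units added and ran from -0.16 to 0.15. FOSL1 between the lines was 0.0708 with 4 group means. With single arrays left out, the line difference ran from -0.19 to 0.14 for FOSL1, from -0.0506 to 0.12 for EGR3, from -0.0119 to 0.31 for FOSB and from -0.21 to 0.0273 for IER3. Silencing across lines ran from -0.19 to 0.43 for FOSB, from -0.17 to 0.0386 for FOSL2, from -0.0188 to 0.17 for JUN and from -0.20 to 0.0118 for IER2. For FOSB, FOSL2 and IER2 the ends of these ranges are the responses of A673 and SK-N-MC alone. In A673 alone FOS ran from -0.57 to 0.10 and FOSL1 from -0.0428 to 0.30.

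The count of genes called in SK-N-MC was 1, and 0 with 16 units added, 5 with a variance trend and 0 to 61 with single arrays left out (61 without siRNA 3 of SK-N-MC). The count ran from 0 to 1 across lines (1 without the A673 control) and from 0 to 26 for the difference of responses (26 without siRNA 3 of SK-N-MC). The cause was not tested. Without 1 siRNA array its group holds 1 array, which is then assumed to vary like the other groups. A further 23 member values, some of them given above as the response of 1 line alone, changed sign in 14 of 244 recomputations and crossed no threshold. Among those that changed sign was IER3 in A673 (-0.0123), at 0.0095 with median centring. Low signal without detection calls limits EGR3, FOSB and FOSL2 most.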
